A study of Mus musculus with 2 samples.

Results

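The deposited count table held 23571 genes, with transcripts that matched no symbol kept under their RefSeq identifier. The potassium channel genes are the 93 whose symbol lies between Kcna and Kcnv and carries a number (Kcne1l, with a letter after it, included). They comprise pore-forming and auxiliary subunits, with antisense and pseudogene names left out. Each gene was represented by the RefSeq transcript with the most reads over the 2 libraries. The symbol alone chose the members, so that no measured value entered the rule beyond the choice among transcripts of one gene. The group itself was chosen with earlier results of these data known. Of the 93 members, 77 had at least 10 reads over both libraries, 16 had fewer, and among these 6 (Kcna10, Kcne1, Kcng1, Kcng2, Kcnip2 and Kcnj1) had no read in either library.

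Both libraries were made from mTEChi (thymic medullary epithelial cells sorted for high MHC class II) of 1 lentigenic mouse on the C57BL/6 background. The animal carried lentiviral constructs integrated after infection of the fertilized oocyte, with 3 small hairpin RNAs against Clp1 and a green fluorescent reporter behind the doxycycline-inducible TRE3G promoter, and with the TetOn3G transactivator behind the EF1 promoter. Its food held doxycycline at 2 g per kg, given for 2 weeks and begun at the age of 3 weeks. The GFP+ mTEChi gave the Clp1_KD library and the GFP- mTEChi of the same thymus gave the Ctr library, so that both groups shared the animal, the constructs and the drug and differed in reporter activity. The promoter is not restricted to a cell type, and the mouse is a single founder with its own set of integration sites. The comparison asked how a reduction of Clp1, a kinase of cleavage factor II that acts in the 3' end formation of mRNAs, bears on the transcripts of mTEChi.

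Potassium channels let potassium ions pass down their gradient and so set the resting potential of a cell, end action potentials and, in epithelia, recycle potassium for secretion and absorption. Pore-forming subunits share a short loop with a selectivity filter whose core is glycine, then tyrosine or phenylalanine, then glycine, and families differ in what opens the pore: voltage, calcium, sodium, nucleotides, G proteins or nothing but membrane tension and acidity. Auxiliary subunits hold no pore and tune gating or traffic. Most of these genes are known for expression in nerve, muscle, heart, kidney or gland, and mTEChi transcribe many genes of such peripheral tissues, in part through the transcriptional regulator Aire.

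Each group is 1 library, so differences are between these libraries, without replicates, and carry no p-value. Intervals are exact 95% intervals of the share of reads in Clp1_KD, converted to log2 ratios of Clp1_KD over Ctr once reads were divided by a size factor (0.877 for Ctr, 1.14 for Clp1_KD), and cover counting error only, since reads amplified by PCR and carrying no molecular identifier may stem from the same molecule. The call of a gene as 2-fold higher or lower required 10 reads or more over both libraries, a 2-fold ratio and an interval without 0. For a library with 0 reads the fold was computed against a floor of 3 reads and is given as "at least"; the floor is 3.42 scaled reads in Ctr and 2.63 in Clp1_KD. In bulk samples fewer cells of a type and less RNA per cell cannot be told apart.

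The count table held 28464803 reads for Ctr and 37524730 for Clp1_KD. Clp1, the targeted gene, had 1573 and 812 reads, which left 39.7% of its Ctr level in Clp1_KD. All 9 mTEC markers (Aire, Foxn1, Fezf2, Epcam, Krt5, Krt14, H2-Aa, Cd40 and Cd80) were read in both libraries, 4 of them 2-fold higher in Clp1_KD and none 2-fold lower. Markers of other cells were also read in both libraries. Those of endothelium (summed scaled reads 24220 in Ctr and 2333 in Clp1_KD, 9 of 9 lower), red cells (62036 and 2072, all 4 with 10 reads lower) and thymocytes (15439 and 4638, 8 of 11 lower) were lower in Clp1_KD. Thymocyte markers were read although the sort gate took CD45-negative cells. Fibroblast and mural cell markers were summed at 21401 and 13502, with 7 of 11 lower and 1 higher. Of the B cell markers 3 of 4 were lower, of those of dendritic cells and macrophages 3 of 6 (1 higher) and of muscle-like cells 3 of 6 (1 higher), whereas 2 of 6 neuroendocrine-like markers (1 lower) and 2 of 5 tuft-like markers were higher; Neurod1 had no read in Ctr. The part of such cells in the results below was not tested.

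The selectivity filter is shown first because it defines the pore-forming families and because it is shared by members that moved in opposite directions. In the coding sequences of GENCODE vM1 on the NCBIM37 (mm9) genome, the build of the files, the in-frame codons GGNTANGGN or GGNTTNGGN were searched on the coding strand. Every one of the 77 pore-forming and modifier members held at least 1 match, and 11 of the 14 two-pore-domain members held 2 or more, whereas none of the 16 auxiliary members held one. Over all 22286 coding sequences 16.2% held a match, so a match alone does not mark a channel. Stretches of 30 bases are printed with the matching codons in capitals; each lies within 1 coding exon.
Kcna2: atgacaactgtaGGCTATGGAgacatggtt
Kcna5: atgaccactgtaGGCTACGGGgacatgagg
Kcnb2: atgaccactgtgGGCTACGGTgacatttac
Kcnc2: atgactaccttaGGTTACGGGgatatgtac
Kcng4: atgacgaccgtgGGCTATGGGgacatggtc
Kcnh6: ctcactagtgtgGGCTTCGGCaatgtgtca
Kcnma1: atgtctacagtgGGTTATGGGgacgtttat
Kcnj8: caagtgaccattGGGTTTGGAgggagaatg
Kcnk3: ctcaccaccatcGGCTTCGGCgactatgtg
Kcnk5: atctccaccattGGCTTTGGGgactttgtg
The stretches lie at chr3:106908136-106908165 on the plus strand (Kcna2, exon 3), chr6:126483754-126483783 minus (Kcna5, exon 1), chr1:15700121-15700150 plus (Kcnb2, exon 2), chr10:111893279-111893308 plus (Kcnc2, exon 3), chr8:122149801-122149830 minus (Kcng4, exon 3), chr11:105880384-105880413 plus (Kcnh6, exon 6), chr14:24347626-24347655 minus (Kcnma1, exon 7), chr6:142514959-142514988 minus (Kcnj8, exon 3), chr5:30924569-30924598 plus (Kcnk3, exon 2) and chr14:20963861-20963890 minus (Kcnk5, exon 4). For Kcnk3 and Kcnk5 the second of their filters is shown. The most alike of the printed stretches, those of Kcna2 and Kcng4, were identical at 25 of the 30 bases, and both genes were 2-fold higher in Clp1_KD. Kcna2 and Kcna5 were identical at 24 of the 30 bases, and Kcnk3 and Kcnk5 also at 24. In each of these latter pairs 1 member was 2-fold higher and the other 2-fold lower in Clp1_KD.

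Across the group, 26 members were 2-fold higher and 26 were 2-fold lower in Clp1_KD, and 25 were not called. That is 33.8% of the 77 members in each direction, against 22.0% of the 18993 genes with 10 reads for higher and 19.7% for lower. The group as a whole thus split in both directions. Its median log2 ratio was -0.18 (95% interval of the median over genes -0.71 to 0.43), beside 0.03 for all genes, and the SD of the log2 ratios over members was 3.59, beside 2.29 for all genes. Genes are not replicates, and these spreads describe the list only. In Ctr 80 members had at least 1 read and in Clp1_KD 81, with 74 read in both. Of the 77 members, 7 had no read in Ctr and 2 had none in Clp1_KD, which is 11.7% of them, beside 6.64% of all genes. Among genes with 10 reads, members had fewer reads (median 137) than all genes (median 795). The shares without reads and the SDs were not matched for this.

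Low counts make large ratios more common, so the share of called genes was also compared by reads, in classes chosen after the values were seen. With 10 to 99 reads, 17 of 25 members were called in either direction (68%), against 72.9% of all genes in that class. With 100 to 999 reads, 29 of 42 members were called (69.0%), against 51.4% of all genes. With 1000 reads or more, 6 of 10 members were called (60%), against 21.0% of all genes. The share of called members was thus near the background in the lowest class and above it in the other 2, with 10 members in the top class.

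**Figure D1:**
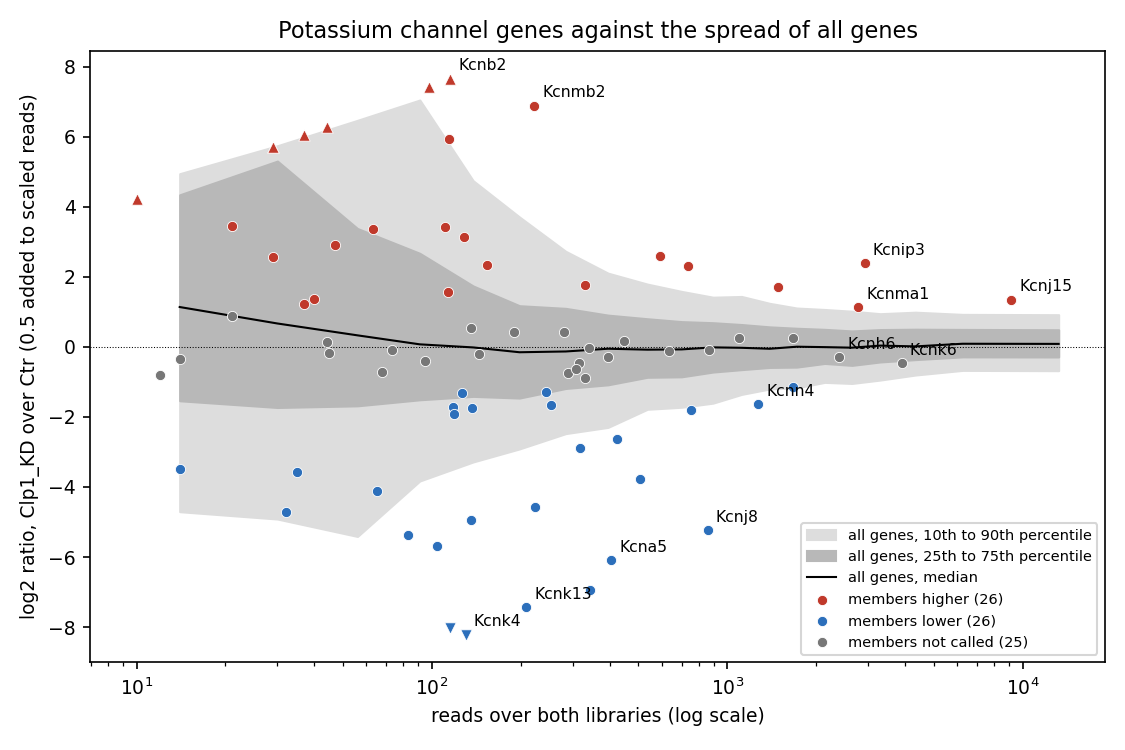
Log2 ratio of Clp1_KD over Ctr (vertical axis, 0.5 added to scaled reads) against the reads over both libraries (horizontal log axis) for the 77 potassium channel genes with at least 10 reads, over the median and percentile bands of all genes. Triangles are members with 0 reads in 1 library, whose height depends on the 0.5 added and is no bound. Members above 1000 reads such as Kcnip3 (2.38) and Kcnn4 (-1.64) lie outside the band from the 25th to the 75th percentile of genes.

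**Figure D2:**
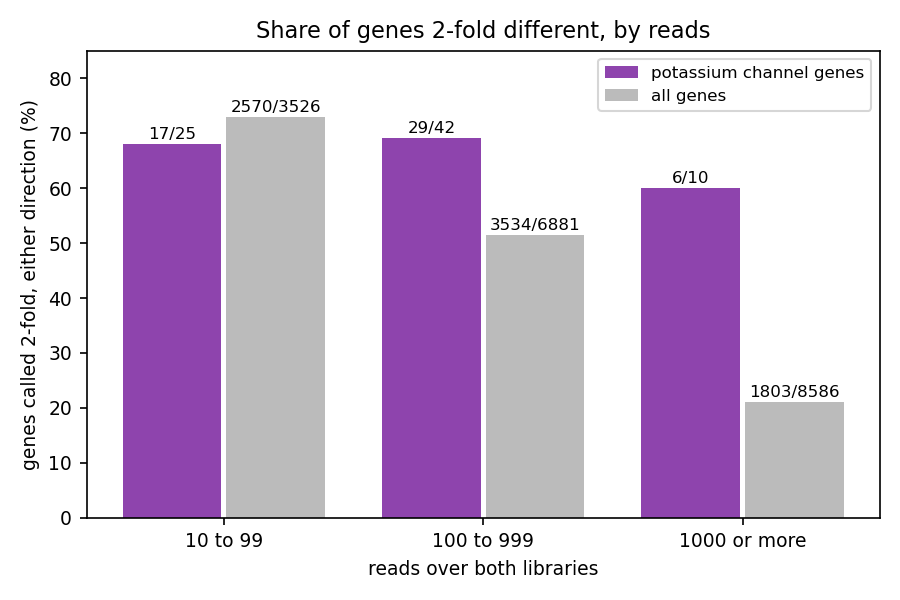
Share of genes called 2-fold in either direction (percent, vertical axis) in 3 classes of reads over both libraries, for potassium channel genes and for all genes, with called over tested genes printed on each bar. The shares of members were 68%, 69.0% and 60%, beside 72.9%, 51.4% and 21.0% of all genes.

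Per kb of transcript, and in scaled reads, the highest levels in Ctr were those of Kcnk6 (560.2), Kcnn4 (503.8), Kcnj15 (469.9), Kcnh6 (462.4) and Kcnj8 (432.5). In Clp1_KD they were those of Kcnj15 (1194), Kcnip3 (761.1), Kcnk6 (403.9), Kcnh6 (377.5) and Kcna2 (304.3). Length is that of the annotated transcript parts, whereas all reads of the transcript were counted. For Kcna2 these parts held 129 of its 282 reads in Ctr and 507 of its 1199 in Clp1_KD. Its level per kb, and so its rank, therefore rests in large part on reads outside that length. Kcnk6 and Kcnh6 thus kept high levels in both libraries, whereas Kcnn4 stood at rank 10 and Kcnj8 at rank 49 in the order of Clp1_KD, after ranks 2 and 5 in Ctr. Of the 93 members 20 reached 100 scaled reads per kb in at least 1 library, 10 of them in both, 7 in Ctr alone and 3 in Clp1_KD alone. Kcnj15, an inward rectifier of the Kir4 group, alone held 12.2% of the reads of all members in Ctr and 28.3% in Clp1_KD. The summed scaled reads of all members were 19838 in Ctr and 21769 in Clp1_KD (log2 0.13). Without Kcnj15 they were 17418 and 15617 (log2 -0.16), so the direction of the sum rested on that gene.

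**Figure D3:**
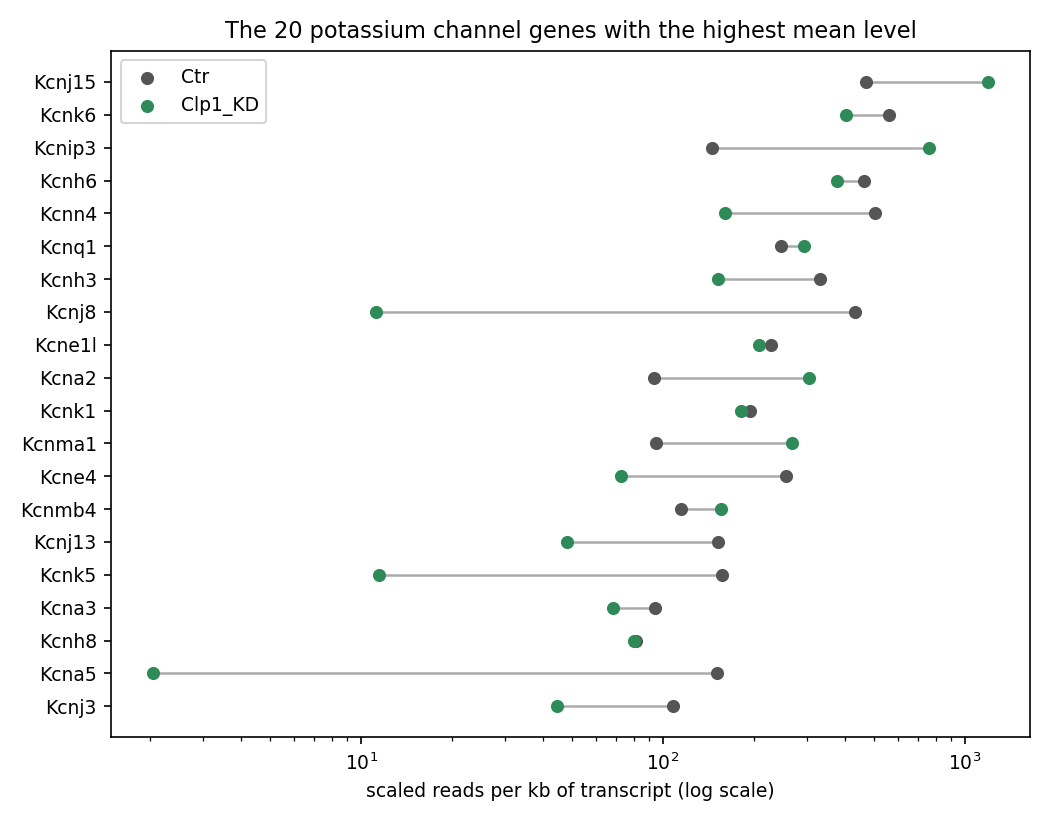
Scaled reads per kb of transcript (horizontal log axis) in Ctr and Clp1_KD for the 20 members with the highest mean level, joined by a line per gene. Lines run leftwards for Kcna5 (150.6 to 2.04), Kcnj8 (432.5 to 11.2) and Kcnk5 (157.3 to 11.5) and rightwards for Kcnip3 (145.6 to 761.1) and Kcnj15 (469.9 to 1194), and the points of Kcnh8 (81.4 and 79.9) nearly coincide.

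**Figure D4:**
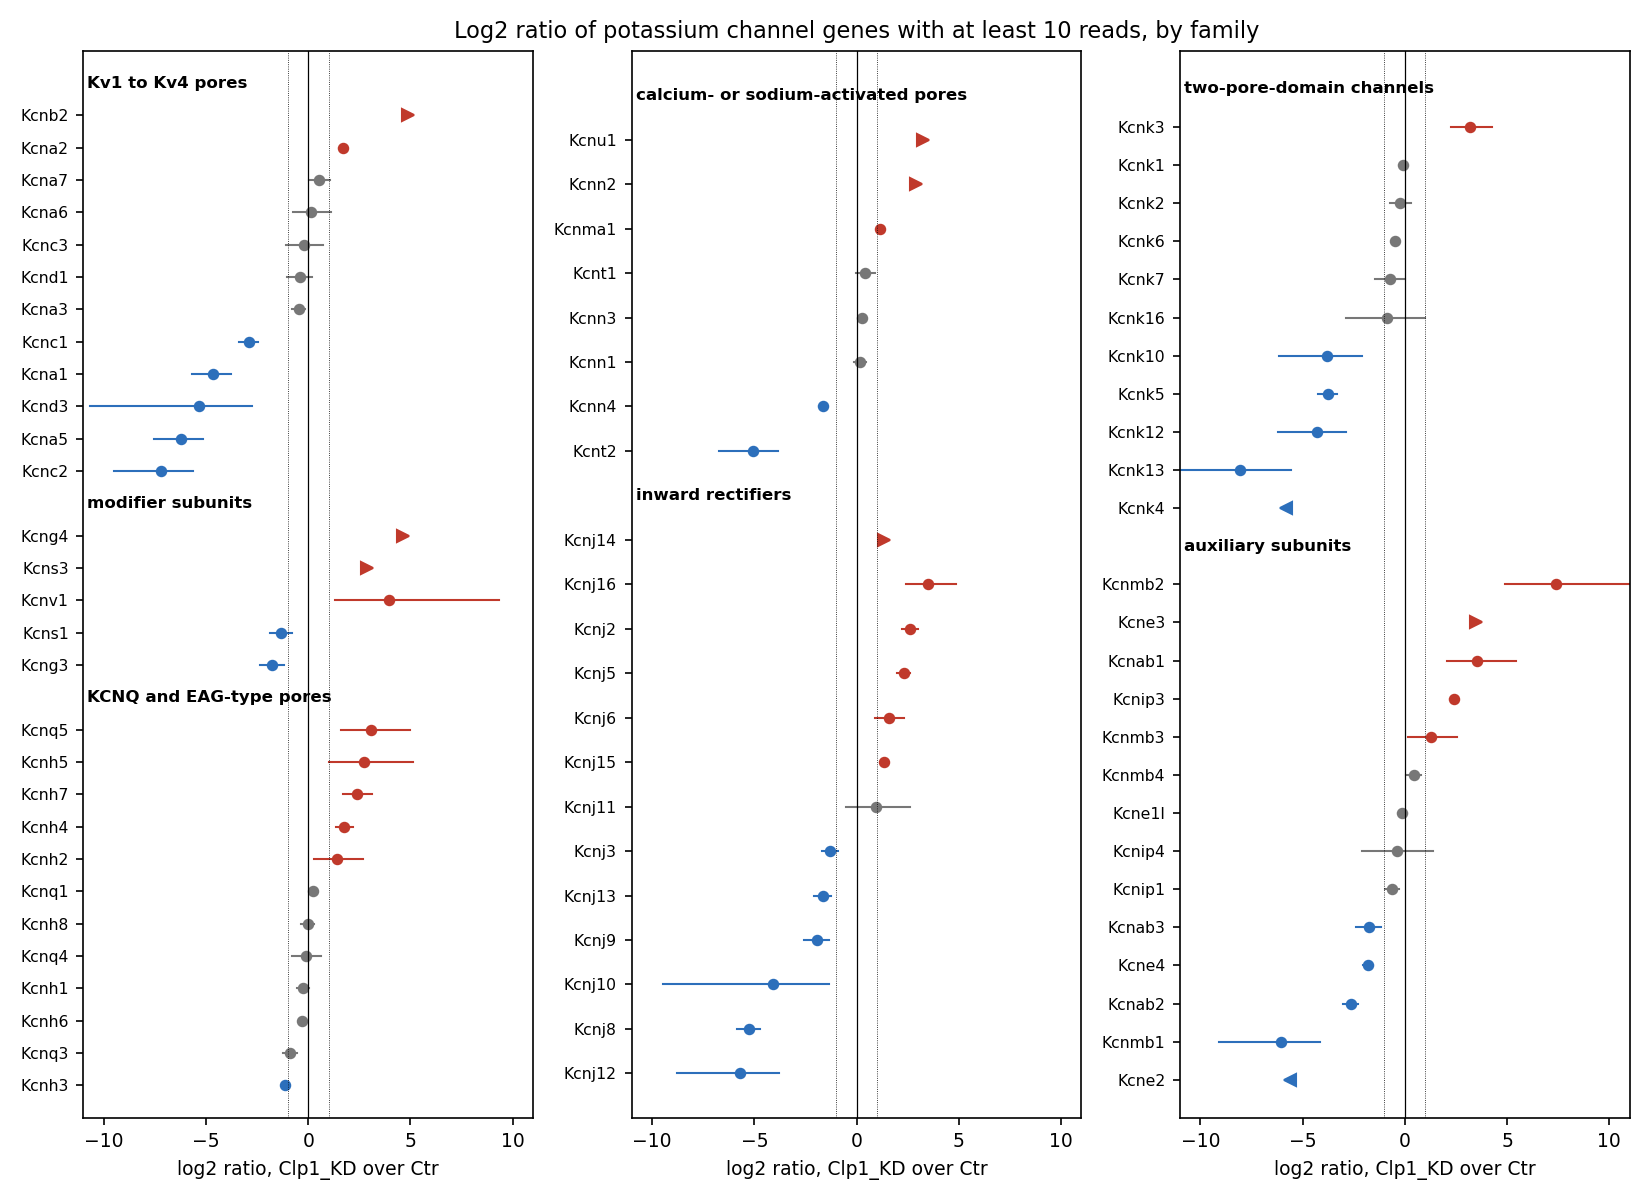
Log2 ratio of Clp1_KD over Ctr (horizontal axis) with its 95% counting interval for 75 members with at least 10 reads, grouped by family, in red where called higher, blue where called lower and grey where not called. Triangles mark the bound of members with 0 reads in 1 library, solid and dotted lines mark no change and 2-fold, and intervals that run past the axis are clipped. Members called higher and members called lower occur in all 7 families.

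The voltage-gated pores of the Kv1 to Kv4 families open on depolarization. They numbered 17, of which 13 had 10 reads, 2 were higher and 5 lower. Such counts, here and for the families below, stand beside 22.0% of all genes higher and 19.7% lower. These shares are not matched for reads. Of all genes with 10 to 99 reads 72.9% were called in either direction, and with 100 to 999 reads 51.4%. Members with few or no reads in 1 library reached 10 reads through the other, in which they are high. Kcna2 (Kv1.2, a channel of axons) had 282 reads in Ctr and 1199 in Clp1_KD, a log2 ratio of 1.71 (1.52 to 1.90). Kcnb2 (Kv2.2, a delayed rectifier) had 0 and 115 reads and was at least 29.5-fold higher. Both were therefore higher in Clp1_KD, and Kcnb2 was read there alone. Kcna5 (Kv1.5, a channel of atrial and vascular muscle) had 397 and 7 reads (log2 ratio -6.20, -7.53 to -5.15). Kcnc2 (Kv3.2, of fast-spiking neurons) had 340 and 3 reads (log2 ratio -7.20, -9.49 to -5.64). Kcna1 (Kv1.1, which assembles with Kv1.2 in axons) had 213 and 11 reads (log2 ratio -4.65, -5.68 to -3.79). Kcna1 and Kcna2 thus differed in opposite directions between the libraries. Kcnc1, another Kv3 channel, had 270 and 47 reads (-2.90) and Kcnd3 (Kv4.3, of the transient outward current) 31 and 1 reads (-5.33, -10.68 to -2.75). Kcna3 (Kv1.3), the voltage-gated channel known for T cells, had 163 and 153 reads (log2 ratio -0.47, -0.80 to -0.14), and was not called. The summed thymocyte markers were 15439 in Ctr and 4638 in Clp1_KD, and their part in the value of Kcna3 was not tested. Kcnd1, another Kv4 channel, had 48 and 47 reads (-0.41, -1.02 to 0.20) and was not called.

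The modifier subunits (Kcnf, Kcng, Kcns and Kcnv) carry a filter but form no channel alone, and change the gating of Kv2 pores. Of 10, 5 had 10 reads and all 5 were called, 3 higher and 2 lower. Kcng4, with 0 and 98 reads, was at least 25.1-fold higher, and Kcns3, with 0 and 29, at least 7.44-fold higher. Kcnv1 had 1 and 20 reads (log2 ratio 3.94, 1.30 to 9.32). These 3 were hardly read in Ctr and reached 10 reads through Clp1_KD. They lie in the class of 10 to 99 reads, in which 72.9% of all genes were called in either direction. Kcns1 had 83 and 43 reads (-1.33, -1.89 to -0.78) and Kcng3 99 and 38 (-1.76, -2.34 to -1.21), and both were lower in Clp1_KD. Kcnf1 had 3 and 2 reads.

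The KCNQ and EAG-type pores, which include the M-current and the ERG channels of cardiac repolarization, had 10 reads for all 13, with 6 higher and 1 lower. Kcnq5, a subunit of the neuronal M-current, had 4 and 43 reads (3.05, 1.59 to 4.99), whereas Kcnq3 had 194 and 136 (-0.89, -1.22 to -0.57) and was not called. Among the EAG-type genes Kcnh2, Kcnh4, Kcnh5 and Kcnh7 were higher, with log2 ratios from 1.41 to 2.74 and at most 61 reads in Ctr. Kcnh3 was lower, with 1045 and 620 reads and a log2 ratio of -1.13 (-1.28 to -0.99). The 2 other members with over 1000 reads were not 2-fold different. Kcnh6 (an ERG channel) had 1157 and 1228 reads (-0.29, -0.41 to -0.18) and Kcnq1, the pore that Kcne subunits join in heart and epithelia, had 654 and 1012 (0.25, 0.11 to 0.40).

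Of the 8 pores activated by calcium or sodium, all had 10 reads, with 3 higher and 2 lower. Kcnma1, the large-conductance BK channel, had 717 and 2056 reads (log2 ratio 1.14, 1.02 to 1.27). Its relative Kcnu1, known from sperm, was at least 9.49-fold higher (0 and 37 reads), and Kcnn2, a small-conductance SK channel, at least 7.44-fold higher (0 and 29 reads). Both Kcnu1 and Kcnn2 reached 10 reads through Clp1_KD alone. Kcnn4, the intermediate-conductance channel of red cells and lymphocytes, was lower with 900 and 374 reads (-1.65, -1.82 to -1.47). Red cell and thymocyte markers were lower as well, as given above, and their part in the value of Kcnn4 was not tested. Kcnt2, a sodium-activated channel, was also lower with 131 and 5 reads (-5.09, -6.74 to -3.83), whereas its paralogue Kcnt1 had 69 and 121 (0.43, -0.01 to 0.88).

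The inward rectifiers pass potassium more readily into the cell than out of it. Of 15 genes 13 had 10 reads, 6 were higher and 6 lower, and Kcnj11, with 6 and 15 reads, was the 1 tested member not called. Kcnj15 had 2122 and 7014 reads (log2 ratio 1.35, 1.28 to 1.42). Kcnj16, which pairs with Kir4 subunits in kidney and glia, had 7 and 104 reads (3.51, 2.42 to 4.86). Kcnj10, another Kir4 channel, had 13 and 1 reads (-4.08, -9.49 to -1.34). Kcnj15 and Kcnj16 were therefore higher and Kcnj10 lower. Among the Kir2 channels, which hold the resting potential of muscle, Kcnj2 was higher with 66 and 524 reads (2.61, 2.24 to 3.00) and Kcnj12 lower with 81 and 2 (-5.72, -8.79 to -3.82). In the count by transcript parts Kcnj12 had only 5 reads in Ctr and 0 in Clp1_KD, all in its 5'UTR. Its last exon had 0 reads in both libraries, so its ratio rests on reads outside these parts. Among the G protein-gated channels, Kcnj5 (99 and 636 reads, 2.31) and Kcnj6 (23 and 90, 1.59) were higher, and Kcnj3 (159 and 85, -1.28) and Kcnj9 (89 and 30, -1.95) were lower. Kcnj8, the pore of the ATP-sensitive channel of mural cells, had 830 reads in Ctr and 28 in Clp1_KD, a log2 ratio of -5.27 (-5.87 to -4.73). Its partner Abcc9, the regulatory sulfonylurea receptor of that channel, had 661 and 175 reads (-2.30, -2.54 to -2.05). Of the mural cell markers, Pdgfrb was lower with 2120 and 590 reads and Cspg4 with 313 and 121, whereas Rgs5 (1797 and 4128 reads, 0.82) and Myh11 (962 and 3230 reads, 1.37) had higher levels in Clp1_KD. Kcnj13 (180 and 74 reads, -1.66) shares 623 bp of exon with Gigyf2 on the opposite strand, and the sources used here do not say if counting was by strand.

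The two-pore-domain channels pass a background potassium current that holds cells at rest. Of 14, 11 had 10 reads, 1 was higher and 5 were lower, with a median log2 ratio of -0.80. Kcnk3 (TASK-1, an acid-sensitive channel) was higher with 10 and 118 reads (3.18, 2.25 to 4.28). Kcnk4 (TRAAK, opened by membrane stretch) had 130 reads in Ctr and 0 in Clp1_KD and was at least 56.3-fold lower. Kcnk13 and Kcnk12, the THIK pair, had 207 and 1 reads (-8.07, -13.38 to -5.58) and 61 and 4 reads (-4.31, -6.23 to -2.88). Kcnk10, a relative of Kcnk4, had 32 and 3 reads (-3.79). Kcnk5 (TASK-2, of kidney epithelium) had 464 and 44 reads (-3.78, -4.26 to -3.33). Both THIK genes and both of these stretch-sensitive genes were thus lower, whereas the third stretch-sensitive gene, Kcnk2, had 68 and 76 reads (-0.22, -0.71 to 0.28). In the count by transcript parts Kcnk2 had 67 and 73 reads in its 5'UTR, 9 and 17 in earlier exons and 0 and 2 in its last exon. Kcnk6 and Kcnk1, of the TWIK group, were well read and not called, with 2009 and 1883 reads (-0.47, -0.56 to -0.38) and 391 and 476 reads (-0.09, -0.29 to 0.10).

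Among the 16 auxiliary subunits, 14 had 10 reads, 5 were higher and 5 lower. Kcnip3, a calcium sensor that binds Kv4 pores and is also known as the transcriptional repressor DREAM, had 374 and 2541 reads (log2 ratio 2.39, 2.23 to 2.55). Kcnip1, of the same group, had 168 and 140 reads (-0.64, -0.98 to -0.31). The beta subunits of the BK channel split. Kcnmb2, which makes BK channels inactivate, had 1 and 221 reads (7.41, 4.92 to 12.72), Kcnmb1, the subunit of smooth muscle, had 102 and 2 (-6.05, -9.12 to -4.16), and Kcnmb4, the neuronal one, had 101 and 178 (0.44, 0.08 to 0.81). The pore itself, Kcnma1, was 2-fold higher, as given above. Among the single-span subunits that join Kcnq1, Kcne2 had 115 and 0 reads (at least 49.8-fold lower), Kcne3 had 0 and 44 (at least 11.3-fold higher) and Kcne4 had 552 and 204 (-1.81, -2.05 to -1.58). Kcne1l, the best read of these after Kcne4, had 289 and 344 (-0.13, -0.36 to 0.10). Kcne2 and Kcne3 were thus each read in 1 library alone, and Kcne4 and Kcne1l in both. Of the beta subunits of Kv1 channels, Kcnab1 was higher with 4 and 59 reads (3.50), and Kcnab2 (351 and 73, -2.64) and Kcnab3 (85 and 33, -1.74) were lower.

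Channel partners and other ion channels, from a list fixed with earlier results of these data known, also held genes called in each direction. Of 11 partners outside the symbol rule 8 had 10 reads, 4 were higher and 2 lower, which is 50% and 25%, beside 22.0% and 19.7% of all genes. The higher ones were Dpp10 (636 and 2494 reads, 1.59) and Dpp6 (73 and 208, 1.13), which bind Kv4 pores, together with Kcnrg (47 and 179, 1.55) and Pex5l (17 and 176, 2.99), which regulates pacemaker channels. The lower ones were Abcc9, given above, and Amigo1, a partner of Kv2 (239 and 122, -1.35), while Abcc8, the other sulfonylurea receptor, had 998 and 1038 reads (-0.32). Of 12 tested voltage-gated sodium channel genes 7 were higher and 3 lower (58.3% and 25%), with a median log2 ratio of 1.83. Of 18 voltage-gated calcium channel genes 6 were higher and 4 lower (33.3% and 22.2%), of 4 pacemaker channel genes 1 and 1 (25% each), and of 6 sodium-potassium pump genes 1 and 1 (16.7% each), shares nearer to those of all genes. The shares of these lists were not matched for reads. Median reads were 182.5 for the sodium channel genes and 2954 for the pump genes, beside 795 for all genes.

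The study's list of Aire-sensitive transcripts, chosen on other libraries and limited to genes with an annotated proximal poly(A) site, held 16 members. Of these 13 had 10 reads, 4 were higher (Kcnh2, Kcnj16, Kcnq5 and Kcns3) and 5 lower (Kcnc2, Kcnd3, Kcnj8, Kcnj9 and Kcnmb1), which is 30.8% and 38.5%. Of the 644 tested genes of the whole list 27.5% were higher and 39.8% lower. The 64 tested members outside the list had 22 higher and 21 lower. They include genes without such a site, for which the list does not give the response to Aire. Kcna6, Kcnip1, Kcnn1 and Kcnt1 were not called, Kcnd2 had 1 and 3 reads, Kcnf1 was given above, and Kcne1 had none. The summed scaled reads of the 16 were 2113 in Ctr and 727.1 in Clp1_KD, and without Kcnj8 they were 1166 and 702.5. The sums differed in the same direction with and without Kcnj8, by less without it.

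The study asked whether Clp1 changes the use of distal 3'UTRs, and measured this by the d3'UTR ratio, in which the density of reads past the first annotated poly(A) site is divided by the density in the last exon before that site. Of the 90 members in the table of transcript parts 25 had such a distal part, and 7 of these had 10 last-exon reads in each library. None of the 7 was 2-fold higher and 2 were 2-fold lower, while 13.9% and 12.6% of 5621 genes were. Kcnn1, a small-conductance calcium-activated channel, had 30 upstream and 92 distal reads in Ctr and 62 and 85 in Clp1_KD, so that its ratio was 0.73 in Ctr and 0.33 in Clp1_KD (log2 change -1.15, -1.98 to -0.36). Kcnj9, a G protein-gated channel, had 6 upstream and 38 distal reads in Ctr and 24 and 0 in Clp1_KD. Both thus had relatively fewer distal reads in Clp1_KD. Kcnk6 went from 0.98 to 0.66 (-0.57, -1.22 to 0.06) and Kcnn3 from 0.02 to 0.03 (0.30, -0.23 to 0.84), Kcnj8 had 76 distal reads in Ctr and 1 in Clp1_KD, Kcna6 had 0 and 4, and Kcnip1 had no distal read in either library.

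Reads of 1 gene did not always move together along the transcript, a comparison made after the values were seen. Of 40 members with at least 20 reads in 2 or more parts (5'UTR, earlier exons, upstream last exon, distal 3'UTR), 13 had parts whose ratios differed by 4-fold or more, which is 32.5%, against 18.1% of 13996 genes. In 2 of the 40 members 1 part was 2-fold higher and another 2-fold lower, which is 5%, beside 2.75% of all genes. Neither comparison was matched for reads. Among genes with 10 reads the median was 137 reads for members and 795 for all genes. The larger shares of members can therefore not be told apart from an effect of fewer reads. Kcnj6 had 23 reads in its 5'UTR in Ctr and none in Clp1_KD, and 0 and 90 reads in its last exon. Kcnj9 had 39 and 6 reads in its earlier exons and 6 and 24 in the upstream part of its last exon, besides the distal reads given above. The call of Kcnj6 as higher thus came from its last exon alone. Kcnk5, called lower, had 34 and 32 reads in its 5'UTR and 349 and 0 in its last exon. Kcnj13 had 76 and 0 reads in its earlier exons and 92 and 74 in its last exon. Kcna7, not called as a gene, had 0 and 22 reads in its last exon. For these members the gene's log2 ratio stands for some parts of the transcript and not for others.

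**Figure D5:**
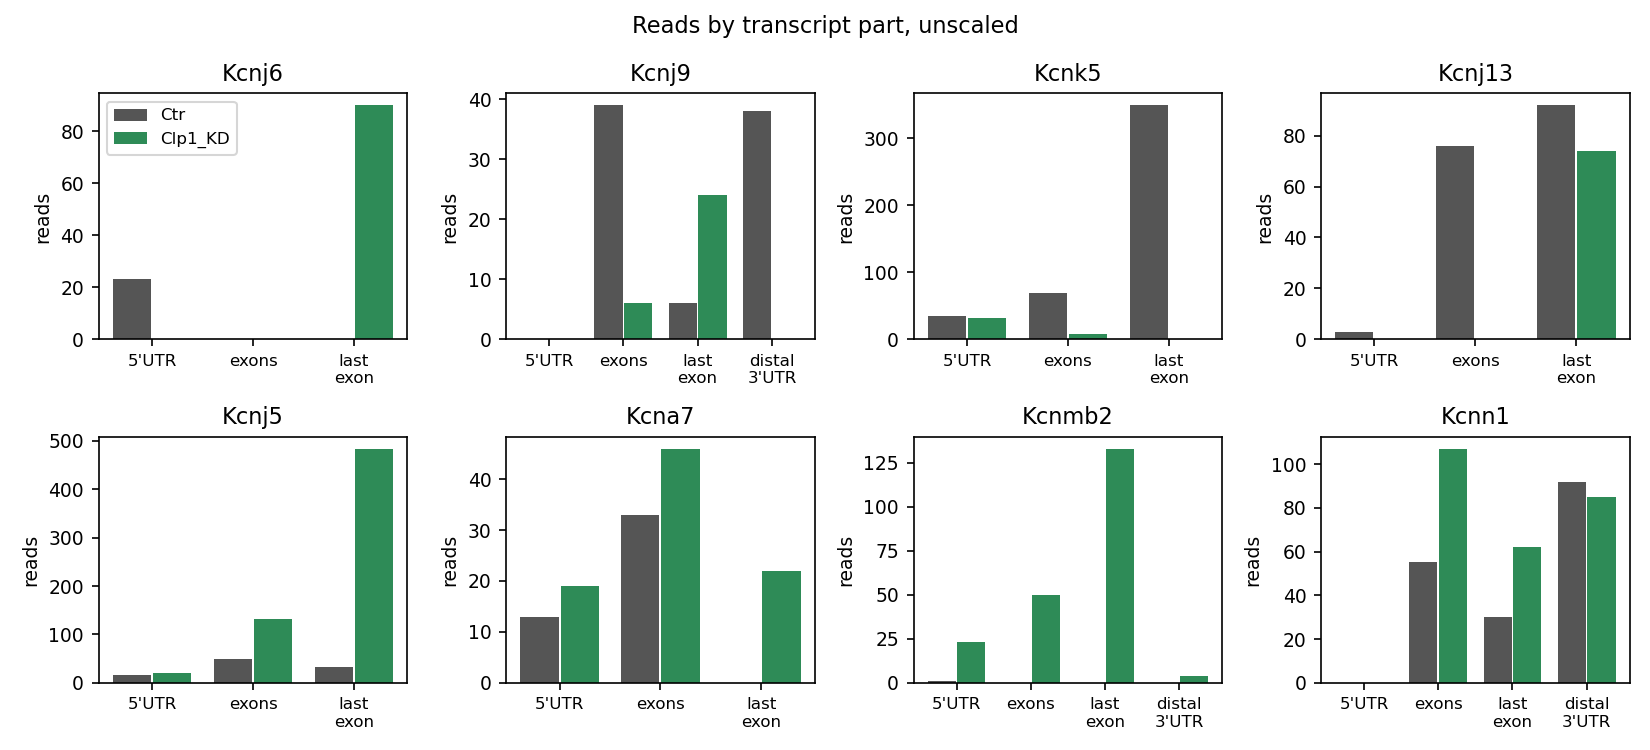
Unscaled reads (vertical axis) in each annotated part of the transcript in Ctr and Clp1_KD for 8 members chosen after their values were seen, with the vertical scale set per gene. Kcnj6 has 23 Ctr reads in its 5'UTR and 90 Clp1_KD reads in its last exon, and Kcnk5 has 349 Ctr reads and no Clp1_KD read in its last exon.

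Features that the symbol rule did not use were also compared. The median GC content of the longest annotated coding transcript was 48.0% for the 26 higher members, 53.6% for the 26 lower and 55.7% for the 25 not called. All genes showed the same order of higher and lower, with 47.5% and 52.6%, and 50.6% for those not called. With the GC trend of all genes subtracted, Kcnh3 (-0.60), Kcnma1 (0.83) and Kcns1 (-0.78) were no longer called, and the values of Kcnh6 (0.14) and Kcne1l (0.33) turned from negative to positive. The median transcript length was 3703 bp for higher, 3040 bp for lower and 2878 bp for uncalled members, and over all genes it was 2759 bp for higher and 2472 bp for lower. The 93 genes lie on 19 chromosomes, and 10 have exons that overlap those of another annotated gene, among which Kcnj13, Kcnj3, Kcnab2, Kcnab3 and Kcnd3 were lower and Kcnh7 and Kcnq5 higher.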

How the data were processed

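Total RNA of sorted GFP+ (Clp1_KD) and GFP- (Ctr) mTEChi of 1 mouse was made into libraries from low input by template switching and transposase fragmentation. The submitters' processing notes name Bowtie 1.0.0, bedtools, DESeq and the mm9 genome. The authors deposited unnormalized read counts for 30794 RefSeq transcripts and for the parts of 27567 of them, with lengths. Reads shared by isoforms count for each of them, and PCR duplicates were not shown to be removed. A deposited table of DESeq comparisons (normalized signals, folds, p-values) was not used.

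Symbols came from a RefSeq table of GRCm38.p6 (30216 transcripts matched); coordinates, GC content and coding sequences came from GENCODE vM1 on mm9. The members and the lists were chosen with earlier results of these data known. Size factors were medians of ratios, and intervals were Clopper-Pearson (scipy 1.17.1). Medians use log2 of scaled reads plus 0.5. Named were the 12 called members per direction with the interval bound farthest from 0, the 10 with the highest level per kb, the most-read member of each symbol family, the Aire-sensitive members and those called for the d3'UTR ratio. Other members were named after their values were seen. Alternatives used total counts, TMM factors (edgeR 4.0.16, factors only), thinning, a GC trend, other minimums and folds, every transcript and a stricter symbol rule. The calling step was tested on simulated data. A few members and sequences are not reported here.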

Additional observations from a re-analysis of the deposited data

How the results depend on the processing

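Total counts and TMM factors left both counts of called members at 26, thinning Clp1_KD to the depth of Ctr gave 25 higher and 26 lower, and subtracting a GC trend 25 and 24. A minimum of 50 reads left 16 of 59 tested members higher and 23 lower, beside 19.1% and 18.6% of all genes. A minimum of 100 reads left 14 of 52 higher and 21 lower, beside 17.3% and 17.2%. With these minimums more members were lower than higher, so the even split depended on members with few reads. A 4-fold limit left 19 higher and 17 lower, beside 12.3% and 9.69% of all genes. Counting every transcript raised the number higher to 75 of 147 (35 lower), beside 21.8% and 19.1% of all transcripts, and the median log2 ratio to 1.14. Several transcripts of one gene, such as those of Kcnj15 and Kcnma1, share reads and so count more than once. The median was -0.18 and lay between -0.40 and 0.04 under the other alternatives, so its sign was not stable. Under the GC trend 3 of the 52 named members, Kcnh3 (-0.60), Kcnma1 (0.83) and Kcns1 (-0.78), were no longer 2-fold different and kept their sign, and 5 uncalled ones moved beyond their interval, of which Kcnh6 turned from -0.29 to 0.14 and Kcne1l from -0.13 to 0.33. Leaving out the 10 members with overlapping exons, an alternative chosen after seeing the data, gave 24 higher and 21 lower of 67, beside 22.0% and 19.7% of all genes. The 2 members called for the d3'UTR ratio were 2 under every minimum tried. No replicate could be left out because each group had 1 library. No paired analysis was possible because each group had 1 library. Depth limits the 16 members under 10 reads, for which a 2-fold difference could not be called, and a count of 0 allows up to 3 reads.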
